A study of Mus musculus with 2 samples.

Results

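The genes examined here are 7 genes of neutrophil granules and cytosol: S100a8, S100a9, Ltf, Camp, Ngp, Lcn2 and Retnlg. They were taken by symbol from the gene lists of both deposited matrices, where each symbol named 1 of the 31053 genes. Their transcripts were measured by single-cell RNA-seq in mouse bone marrow (BM) cells sorted by flow cytometry for cell-surface E-cadherin and for cKIT, the stem cell factor receptor. The study compared the sorts to ask how E-cadherin+cKIT+ cells stand to the basophil and mast cell precursors of the E-cadherin+cKIT- sort. The labels name no neutrophil marker in the gates, whereas the antibody list of the paper marks CD11b and Ly-6G/C as lineage (LIN) antibodies. The paper refers the sort for sequencing to its general gating strategy. A legend on that strategy and the basophil gate names live singlet, non-erythroid and LIN-negative gates. It does not say which of these were set in this sort. By flow cytometry the paper reports that E-cadherin was not coexpressed with LIN markers, CD11b and Ly-6G/C among them.

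There was 1 library for each sort, E-cadherin+cKIT+ (cKIT+) and E-cadherin+cKIT- (cKIT-), both from steady-state BM with no treatment. The sample labels give the strain as FVB and no age. The paper describes the sorted mice as wild-type in one place and as Vav-iCre;mTmG in another, a line in which Cre driven by the Vav promoter switches a reporter in blood cells, and both libraries pool cells of several mice. The filtered data held 6479 cKIT+ and 3662 cKIT- cells, with a median of 13039 and 4416.5 unique molecular identifiers (UMIs, 1 per captured transcript) per cell. Kit fell on the labelled side, at 37.1 CPM (a gene's UMIs per 1000000 UMIs of the cells summed) in the cKIT+ library and 0.874 CPM in the cKIT- library. With 1 library per sort, no difference between the sorts could be tested, and every interval below is a 95% interval for counting error only. The libraries shared 10 cell barcodes, and no gene of the set was called in those cells.

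Neutrophils build their granules in order as they mature in the BM. Proteases such as elastase are packed into primary granules of promyelocytes, lactoferrin (Ltf), the cathelicidin Camp, neutrophilic granule protein (Ngp) and lipocalin-2 (Lcn2, which binds bacterial siderophores) into secondary granules of myelocytes and metamyelocytes, and gelatinase granules follow. S100a8 and S100a9 pair as calprotectin, a metal-binding protein of the cytosol. Retnlg, a resistin-like secreted protein, is a gene of late neutrophils. Basophils, which carry Mcpt8, are a separate granulocyte lineage.

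On GRCm38, S100a8 lies at chr3:90668978-90670035 on the plus strand and S100a9 at chr3:90692632-90695721 on the minus strand, with 22.6 kb between them. Chromosome 9 holds Camp (chr9:109847379-109849617, minus), Ngp (chr9:110419747-110423012, plus) and Ltf (chr9:111019271-111042767, plus), with 570.1 kb between Camp and Ngp and 596.3 kb between Ngp and Ltf. Lcn2 lies at chr2:32384633-32388252 on the minus strand and Retnlg at chr16:48872621-48874496 on the plus strand. All 7 had a RefSeq promoter on GRCm38.p6. Of these the stretches before S100a8 and S100a9, a pair whose ratio differed between cells, before Ngp, as a secondary granule gene, and before Retnlg, whose level in granule gene-expressing cells differed most between the sorts, are printed 5′ to 3′ in the direction of the gene. Each ends before the RefSeq start or the first GENCODE exon, whichever comes first. Capitals mark matches, on either strand, to TTGCNNAA (the C/EBP type of motif) or GAGGAAG (the PU.1 type).
S100a8 (chr3:90668821-90668977, plus): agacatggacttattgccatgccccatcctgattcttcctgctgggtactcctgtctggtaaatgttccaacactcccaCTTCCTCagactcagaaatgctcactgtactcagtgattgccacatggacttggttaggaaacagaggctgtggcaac
S100a9 (chr3:90695722-90695971, minus): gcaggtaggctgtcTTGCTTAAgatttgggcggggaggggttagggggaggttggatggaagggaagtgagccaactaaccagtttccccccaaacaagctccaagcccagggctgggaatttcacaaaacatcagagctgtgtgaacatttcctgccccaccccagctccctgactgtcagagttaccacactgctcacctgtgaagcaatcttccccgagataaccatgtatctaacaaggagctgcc
Ngp (chr9:110419558-110419746, plus): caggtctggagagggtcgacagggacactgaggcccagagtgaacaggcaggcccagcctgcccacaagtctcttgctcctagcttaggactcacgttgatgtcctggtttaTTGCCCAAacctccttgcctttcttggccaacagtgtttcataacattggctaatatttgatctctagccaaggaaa
Retnlg (chr16:48872358-48872607, plus): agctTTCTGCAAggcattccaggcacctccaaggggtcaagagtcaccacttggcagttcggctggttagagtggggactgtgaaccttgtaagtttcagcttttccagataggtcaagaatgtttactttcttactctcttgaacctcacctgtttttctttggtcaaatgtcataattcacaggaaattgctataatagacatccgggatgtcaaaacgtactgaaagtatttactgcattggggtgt

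In the whole windows of 250 bases before the RefSeq start, TTGCNNAA was found at S100a9, Ltf, Lcn2 and Retnlg with 1 match each and at Ngp with 2, against 9.57% of 32817 promoters. GAGGAAG was found at S100a8 and Lcn2, against 10.6% of promoters, and TATAAA at S100a8, against 12.4%. Matches of different motifs did not overlap. Camp held none of these letters in its window. A match is a run of letters and not a measured binding site.

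Summed over all cells of a sort, 6 of the 7 genes were higher in cKIT+ cells, and such a sum does not tell more cells with a transcript from more transcript per cell. S100a8 stood at 7942 CPM in cKIT+ and 2181 CPM in cKIT- cells, and their ratio was 3.64 (3.61 to 3.67). S100a9 stood at 9067 and 3143 CPM, a ratio of 2.89 (2.86 to 2.91). Both transcripts of calprotectin were thus higher in cKIT+ cells.

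The secondary granule genes covered a wider range of ratios. Camp stood at 3987 CPM in cKIT+ and 548 CPM in cKIT- cells, a ratio of 7.27 (7.15 to 7.41). Ngp stood at 2357 and 383 CPM, a ratio of 6.15 (6.02 to 6.28). These were the 2 of 7 genes that reached a 4-fold difference. Among the 3224 genes that had 50 CPM or more in either library, 1.15% reached 4-fold toward cKIT+ and 2.26% toward cKIT-. Ltf stood at 420.8 and 121.5 CPM, a ratio of 3.46 (3.33 to 3.601), and Lcn2 at 768 and 249 CPM, a ratio of 3.08 (2.998 to 3.165). For Lcn2 the order turned when the cells with several secondary granule genes called were left out, to 44.57 CPM in cKIT+ and 95.02 CPM in cKIT- cells. A 2-fold difference toward cKIT+ was reached by 6 of the 7 genes and by 6.14% of all genes compared.

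Retnlg went the other way, at 208 CPM in cKIT+ and 370 CPM in cKIT- cells, 1.78-fold higher in cKIT- (1.73 to 1.83). Its log2 ratio of cKIT+ over cKIT- of -0.83 became 0.17 when each cell was given the same weight and 0.34 as UMIs per cell, a scale on which the libraries differ by 1.17 on the log2 scale in depth. The median log2 ratio of the 7 genes was 1.79 and that of the 3224 genes was -0.06.

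**Figure D1:**
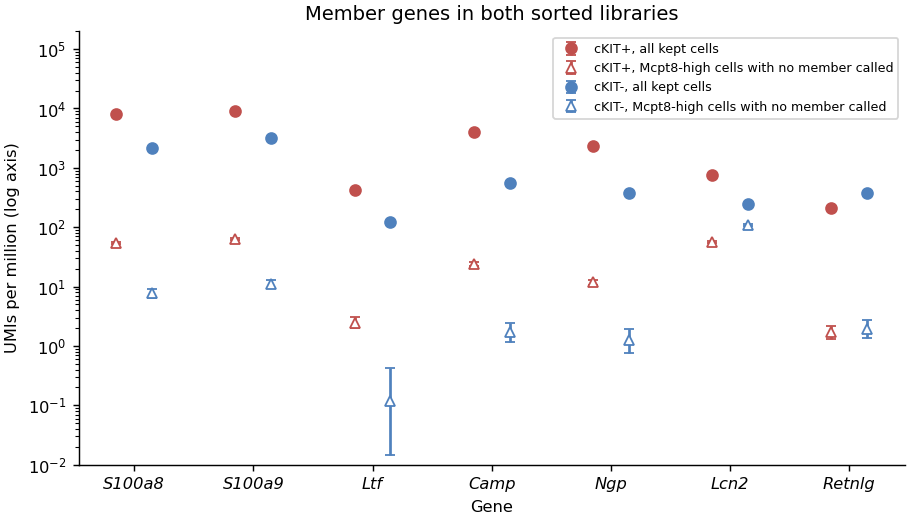
Level of each gene in both sorts, in CPM on a log axis; circles are all kept cells of a library, triangles are Mcpt8-high cells in which no gene of the set was called, and bars are 95% counting intervals (smaller than most symbols). All circles lie above their triangle, by least for Lcn2 in the cKIT- library, at 249 against 108.6 CPM.

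Nearly all of these UMIs sat in few cells. The level to compare with was read in Mcpt8-high cells, those in which Mcpt8 made up at least 1% of UMIs (2649 cKIT+ and 1901 cKIT- cells). The premise was that basophils lack neutrophil granule transcripts. A gene was called in a cell with at least 3 of its UMIs and at least 10 times that ambient CPM of the same library. For Lcn2 the premise is in doubt, since its level rose with Mcpt8, as given below. Its ambient level in the cKIT- library was 117.8 CPM, and 108.6 CPM in Mcpt8-high cells with no gene of the set called. The Lcn2 threshold there, 1178 CPM, is thus not 10 times a background level alone. S100a8 was called in 544 of 6479 cKIT+ cells (8.40%, 7.73 to 9.10) and in 66 of 3662 cKIT- cells (1.80%, 1.40 to 2.29). S100a9 was called in 506 and 66 cells. At an equal depth of 2000 UMIs per cell, reached by all but 345 and 176 cells, the S100a8 shares were 8.17% and 1.75%.

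Fewer cells were called for the granule genes. Camp was called in 437 cKIT+ and 32 cKIT- cells, Ngp in 420 and 38, Lcn2 in 412 and 48, and Ltf in 379 and 25. Retnlg was called in 160 cKIT+ cells (2.47%, 2.11 to 2.88) and 57 cKIT- cells (1.56%, 1.18 to 2.01). The called cells held 98.1% of all S100a8 UMIs and 99.3% of all Ltf UMIs of the cKIT+ library. In the cKIT- library they held between 99.47% and 99.75% of the UMIs of 6 genes, and 66.4% of Lcn2.

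Few cells lay near the thresholds of most genes. For S100a8 in cKIT+ cells the threshold was 8076 CPM, the lowest called cell stood at 8147 CPM and the median called cell at 130309 CPM. There, 40 called cells lay within 2-fold above the threshold and 36 uncalled cells within 2-fold below it. Lcn2 in the cKIT- library had 6 called cells and 35 uncalled cells in those ranges.

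The ambient level itself came mostly from a few cells. At least 1 gene of the set was called in 25 of the 2649 Mcpt8-high cKIT+ cells and 4 of the 1901 Mcpt8-high cKIT- cells. Those 25 cells held between 93.4% and 95.9% of the UMIs that Mcpt8-high cells had of 6 genes, and 56.7% of Lcn2. In the cKIT- library the largest single Mcpt8-high cell held 98.88% of their Ltf UMIs, 95.72% of Camp and 93.35% of Ngp. The cKIT- thresholds of those genes, 104.9, 440.2 and 256.9 CPM, thus rest mainly on 1 cell each. For Lcn2 the 4 called cKIT- cells held 8.15%. The doublet caller Scrublet called 24 of the 25 and 0 of the 4. In the cKIT- library it called only 3 kept cells, so its calls say little there. Of the 4, 2 were among its highest scores, as were 96 of all 1901 Mcpt8-high cKIT- cells. The 25 cells had more UMIs, and their median of 21610 UMIs stood above the 14126 of the other Mcpt8-high cells. Without them, S100a8 fell from 808 to 53.9 CPM (51.7 to 56.3) in cKIT+ cells and from 146.9 to 7.68 CPM (6.42 to 9.12) in cKIT- cells. Camp then stood at 24.1 and 1.71 CPM, Ngp at 11.8 and 1.24 CPM, Ltf at 2.48 and 0.118 CPM and Retnlg at 1.71 and 1.95 CPM. The S100a8, S100a9, Camp and Ngp levels of these basophil-type cells were higher in the library that held more called cells. Calling with 10 times this lower level gave 740 cKIT+ and 73 cKIT- cells with at least 1 gene called, in place of 547 and 67.

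Lcn2 did not follow the others in Mcpt8-high cells. In those with no gene of the set called it stood at 55.9 CPM (53.6 to 58.3) in cKIT+ and 108.6 CPM (103.7 to 113.6) in cKIT- cells, the reverse of the order of S100a8. At least 1 Lcn2 UMI was found in 1137 of 2624 such cKIT+ cells (43.3%) and in 867 of 1897 such cKIT- cells (45.7%), with a median of 14126 and 8738 UMIs per cell. For each S100a9 UMI there were 0.0912 Lcn2 UMIs (0.0905 to 0.0919) in cKIT+ cells with several secondary granule genes called, 0.878 (0.829 to 0.930) in these Mcpt8-high cKIT+ cells and 9.72 (8.36 to 11.4) in the Mcpt8-high cKIT- cells. S100a8 over S100a9 was 0.846 in both groups of cKIT+ cells.

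The Lcn2 level rose with the Mcpt8 level. Among cKIT- cells with no gene called, Lcn2 stood at 1.15 CPM (0.0291 to 6.40) in the 287 cells without an Mcpt8 UMI, 14.7 CPM (10.9 to 19.3) where Mcpt8 was 0.1 to 1% of UMIs, 73.7 CPM (60.9 to 88.3) at 1 to 2% and 117.9 CPM (108.4 to 128.0) at 4% and over. Thinned to 2000 UMIs, 1 of 247 cells without Mcpt8 and 100 of 492 cells at 4% and over held an Lcn2 UMI (0.405% and 20.3%). In cKIT+ cells it went from 9.86 CPM without Mcpt8 to 107.2 CPM at 4% and over. S100a8 showed no such rise, at 17.2 CPM in cKIT- cells without Mcpt8 and 6.68 CPM at 4% and over. Cells richer in Mcpt8 also held more UMIs, with medians of 2615 and 9387 at the low and high ends of the cKIT- range. The ranges pool cells of all clusters, so cell type changes along them too. In the cKIT- library 46 of 1200 cells of the basophil-like cluster led by Wdr95 were Mcpt8-high. In a B cell-like cluster 6 of 168 were. The part of cell type in the Lcn2 rise was not tested, nor that of depth beyond scaling and thinning.

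**Figure D2:**
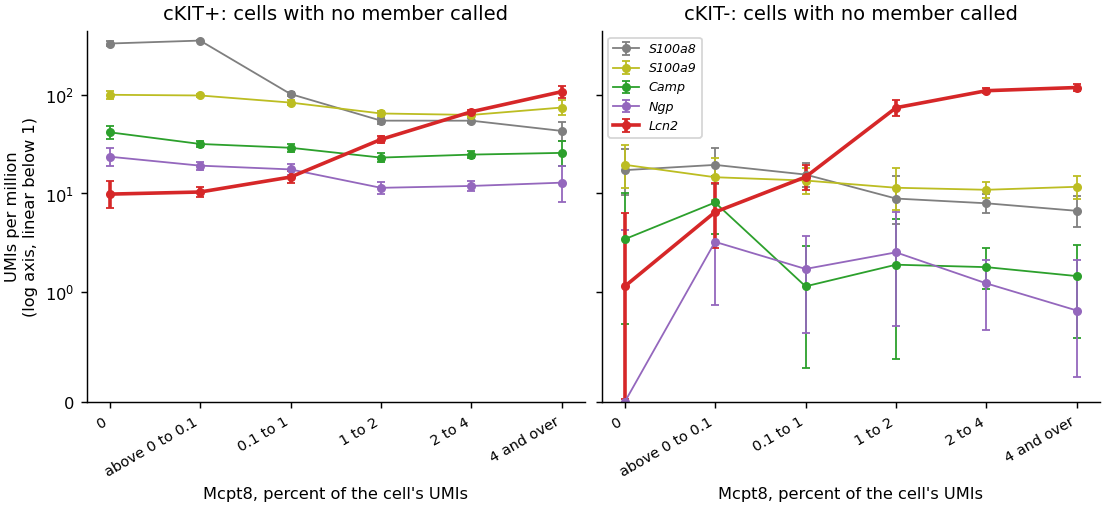
Level of 5 genes of the set (CPM, log axis that is linear below 1) in cells with no gene of the set called, by the share of their UMIs that were Mcpt8, for cKIT+ (left) and cKIT- (right); bars are 95% counting intervals. Lcn2 climbs to 107.2 and 117.9 CPM at the right end. In cKIT+ cells S100a8 stands at 328 CPM without Mcpt8, 54.5 CPM at 1 to 2% and 42.9 CPM at the right end. Cells of all clusters are pooled, among them a cKIT+ cluster led by Elane in which 11 of 828 cells were Mcpt8-high.

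Lcn2 also differed among clusters called basophil-like from their markers. In the cKIT- library it stood at 119.9 CPM (110.0 to 130.5) and 120.8 CPM (109.4 to 133.2) in the cycling clusters led by Cdc25b and by Mxd3, 107.9 CPM (95.4 to 121.6) in the cluster led by Cd200r4 and Prss34, 75.3 CPM (65.8 to 85.7) in one led by Gm35147 and Ccl3, and 5.80 CPM (3.54 to 8.96) in the 1200 cells of the cluster led by Wdr95 and Ccl4. All are levels in cells with no gene of the set called. The first 3 did not differ beyond their intervals. The last lay apart, and its cells were shallow, with a median of 2898 UMIs. In cKIT+ cells the cluster led by Sox4 and Apoe stood at 17.02 CPM (13.9 to 20.6).

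Cells that made secondary granule transcripts together were taken as those with at least 3 of Ltf, Camp, Ngp and Lcn2 called. There were 389 in the cKIT+ library (6.004%, 5.438 to 6.610) and 32 in the cKIT- library (0.874%, 0.599 to 1.23). Thinned to 2000 UMIs the shares were 6.02% and 0.861%. Without the cells that Scrublet called there were 323 and 32, and without Mcpt8-high cells 371 and 31. They clustered together, 237 of the 389 and 5 of the 32 in one cluster and 135 and 27 in a second, although the 7 genes were left out of the clustering. Both clusters were neutrophil-like by markers other than these genes, with 7 and 10 of the 10 neutrophil markers on.

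In these secondary granule cells the 7 genes took up a large part of all transcripts, 37.8% of UMIs in cKIT+ and 48.4% in cKIT- cells, against 2.48% and 0.700% over the whole libraries. CPM is a share of all UMIs, so this lowers the CPM of every other gene in these cells. No correction was made for it. Among the cKIT+ cells S100a8 ran from 5841 CPM through a median of 142330 to 215499 CPM, and S100a9 from 8787 through 167925 to 283944 CPM. Among the cKIT- cells S100a8 ran from 73283 through 162866 to 208932 CPM, and S100a9 from 121050 through 235774 to 288151 CPM. The ranges overlapped, with the lowest cells in the cKIT+ library. Neither S100 gene had been used to choose the cells, and S100a8 was called in 388 of 389 and 32 of 32 of them.

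The genes that did choose the cells ran as follows. Camp had a median of 71857 CPM in cKIT+ cells (3858 to 123330) and 39014 CPM in cKIT- cells (927 to 106690). Ngp had a median of 46276 CPM (3136 to 93939) and 23495 CPM (871 to 71824). The ranges overlapped. Their lower ends follow from the choice of cells, since the threshold of a call was 3873 CPM in cKIT+ and 440.2 CPM in cKIT- cells for Camp, and 2612 and 256.9 CPM for Ngp. Lcn2 had a median of 13526 CPM (628 to 37741) and 14780 CPM (2244 to 25105). Ltf had a median of 8276 CPM (0 to 30329) and 9527 CPM (0 to 25190) and was called in 378 of the 389 and 25 of the 32. Summed over the cells, 6 of the genes in cKIT- cells stood between 0.818-fold (Camp) and 1.59-fold (Ltf) of the cKIT+ cells.

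Retnlg was the gene that differed most between the sorts in these cells. It was called in 110 of 389 cKIT+ cells (28.3%, 23.9 to 33.0) and in 25 of 32 cKIT- cells (78.1%, 60.0 to 90.7). Its median was 60.4 CPM (0 to 96277) in cKIT+ and 17461 CPM (0 to 96853) in cKIT- cells, and its sum stood at 1873 against 17808 CPM, 9.51-fold higher in cKIT- cells (9.17 to 9.85). Both ranges began at 0 and the upper ends were alike. Thinned to 2000 UMIs, a Retnlg UMI was found in 130 of 370 (35.1%) and 27 of 32 (84.4%), whereas 4 of 1116 cKIT- basophil-type cells at 2 to 4% Mcpt8 held one (0.358%). The median depth was 12445 UMIs per cell in cKIT+ and 5973 in cKIT- cells. Among cKIT+ cells the median was 15931.5 UMIs in the first neutrophil-like cluster and 5717.5 in the second. The part of depth in the Retnlg difference, beyond thinning, was not tested. Across the settings tried, the share ran from 21.7% to 33.9% in cKIT+ and from 70.0% to 78.8% in cKIT- cells. All of them kept a threshold set in each library, for Retnlg 413.3 CPM in cKIT+ and 132.6 CPM in cKIT- cells. The cells themselves were also chosen at thresholds that differed between the libraries, for Camp 3873 CPM in cKIT+ and 440.2 CPM in cKIT- cells. A common threshold was not tried for either step. The first neutrophil-like cluster held 237 of the 389 cells and 5 of the 32. Over all cells of the second, Retnlg stood at 14486 CPM in cKIT+ and 32417 CPM in cKIT- cells. The part of this make-up in the difference was not tested.

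**Figure D3:**
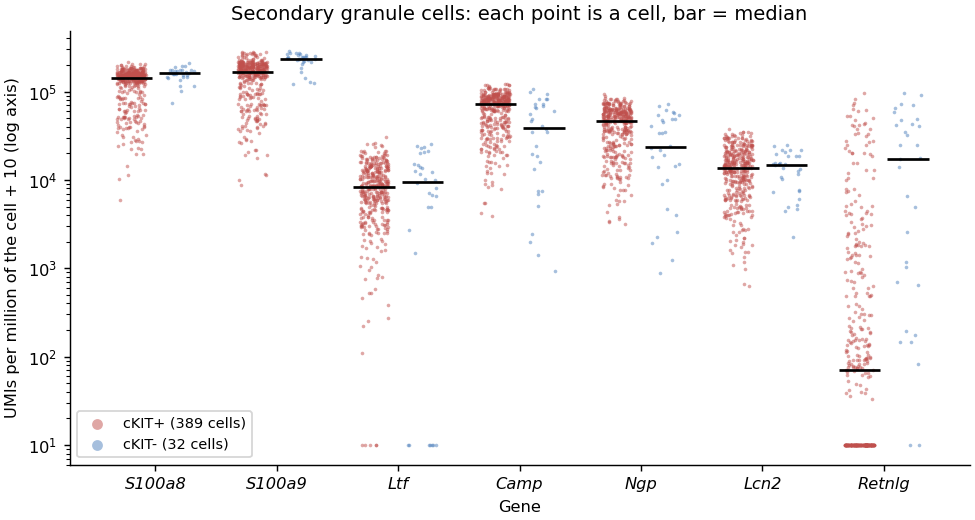
Level of each gene in each secondary granule cell, as CPM of the cell plus 10 on a log axis; 389 cKIT+ and 32 cKIT- cells, with black bars at medians. The medians of Retnlg lie farthest apart, at 60.4 CPM in cKIT+ and 17461 CPM in cKIT- cells, and cells without a UMI lie at 10.

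In other cells Retnlg was called without most secondary granule genes, which is how they were chosen. Retnlg was called in 50 cKIT+ and 32 cKIT- cells that did not reach 3 secondary granule genes. In the cKIT- cells Retnlg stood at 35061 CPM and S100a9 at 183439 CPM, whereas Camp stood at 68.0 CPM (29.4 to 134.0) and no Ltf UMI was found in 117652 UMIs, which allows up to 25.5 CPM. In the cKIT+ cells Retnlg stood at 26861 CPM, Camp at 952 CPM and Ltf at 75.3 CPM. The other secondary granule genes were not as low, with Lcn2 at 2205 CPM in cKIT+ and 2074 CPM in cKIT- cells and Ngp at 1340.2 and 433.5 CPM. Summed over these cells, Mcpt8 stood at 7264 CPM in cKIT+ and 8134 CPM in cKIT- cells, and all 10 basophil markers at 16959 and 21683 CPM. Such sums can come from a few cells. Gata2, a basophil marker, had UMIs in 11 of the 50 cKIT+ and 3 of the 32 cKIT- cells. The part of basophil transcripts in these values was not tested. The pattern S100a8, S100a9 and Retnlg alone was found in 19 cKIT+ and 16 cKIT- cells.

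The 2 neutrophil-like clusters differed in the granule genes. The first, led by Chil3, Camp and Ngp, had 262 cKIT+ and 5 cKIT- cells, and the second, led by Retnlg, Mmp9 and Mmp8, had 182 and 58. In cKIT+ cells, Retnlg stood at 668 CPM (645 to 692) in the first and 14486 CPM (14254 to 14722) in the second. Ltf stood at 5366 and 12244 CPM, Lcn2 at 9966 and 19650 CPM, and S100a9 at 122811 and 205892 CPM. Camp differed little, at 60910 and 66005 CPM. The early primary granule gene Elane, neutrophil elastase, stood at 2276 CPM in the first and 22.5 CPM in the second, and the proliferation gene Mki67 at 376 and 12.7 CPM.

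Mmp8, Mmp9 and Ly6g are among the leading genes of the second cluster, so that their levels there are a description of it. Mmp8 and Mmp9, a collagenase and a gelatinase of neutrophils, stood at 63.7 and 52.2 CPM in the first cluster and 1158 and 997 CPM in the second. Ly6g, a surface marker of neutrophils, went from 216 to 1256 CPM, and Cxcr2, a chemokine receptor of mature neutrophils, from 18.9 to 167.3 CPM. Within the second cluster the sorts differed as well. Camp was called in 135 of 182 cKIT+ cells (74.2%) and 27 of 58 cKIT- cells (46.6%), and Retnlg in 125 (68.7%) and 53 (91.4%). These calls used unlike thresholds, 3873 CPM in cKIT+ and 440.2 CPM in cKIT- for Camp, and 413.3 and 132.6 CPM for Retnlg. At least 1 UMI, at unequal depth, was found in 154 cKIT+ and 32 cKIT- cells for Camp, and in 153 and 55 for Retnlg. The part of the thresholds in the called shares was not tested.

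Markers of basophils moved with the first cluster. Their summed level over 10 markers was 6342 CPM in its cKIT+ cells and 1129 CPM without the cells that Scrublet called, 458 CPM in the second cluster and 54142 CPM in Mcpt8-high cells with no gene of the set called. In the first cluster none of the 10 was at 0 and in the second Cd200r3 was. In the secondary granule cells the sum was 4998 CPM in cKIT+ and 4723 CPM in cKIT- cells, and 2364 and 594 CPM without Mcpt8-high cells. The part of basophil transcripts in these values was not tested. Kit stood at 21.7 CPM in the first cluster and 5.87 CPM (2.15 to 12.8) in the second. Cdh1, which encodes E-cadherin, stood at 23.1 CPM and 0.979 CPM, against 62.8 CPM over the whole cKIT+ library. The 0.979 CPM lies under the limit for a count of 0 there, 2.935 CPM. These Kit and Cdh1 values include the cells that Scrublet called. The 10 neutrophil markers summed to 15025 CPM in the cKIT+ and 14909 CPM in the cKIT- secondary granule cells and to 195 and 240 CPM in the Mcpt8-high cells with no gene called, where Itgb2l was at 0. Chil3 alone made up most of the sum in the cKIT+ secondary granule cells, at the level given below.

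S100a8 was ahead of S100a9 in the cells of 2 other clusters. A cluster of 828 cKIT+ cells led by Elane and Prtn3, and by the eosinophil granule genes Prg3 and Prg2, was left unnamed since both lineages led it. Over all its cells S100a8 stood at 3316 CPM and S100a9 at 2178 CPM. S100a8 was called in 85 of its cells, S100a8 standing there at 22927 CPM and S100a9 at 17181 CPM. That order is favoured by the choice of the 85 cells by S100a8 itself. In its other 743 cells S100a8 stood at 617 CPM (605 to 630) and S100a9 at 113 CPM (108 to 118). As a ratio of UMIs, which count 3′ ends and are not scaled for length, S100a8 over S100a9 was 5.46 (5.19 to 5.75) in those cells, against 0.870 (0.867 to 0.873) in the first and 0.775 (0.770 to 0.780) in the second neutrophil-like cluster. The monocyte-like cluster also leaned to S100a8, with ratios of 2.41 (1.86 to 3.14) in 81 cKIT+ and 5.43 (2.40 to 14.4) in 50 cKIT- cells with no gene called. There the second ratio rests on 60 UMIs of the 7 genes.

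Not all of the 85 cells of the Elane cluster with S100a8 called carried the granule genes. Camp UMIs were found in 78 of them, Ngp in 55, Lcn2 in 42, Ltf in 16 and Retnlg in 8, and 8 cells of the cluster were secondary granule cells. Camp stood at 5172 CPM, Ngp at 1186 CPM, Lcn2 at 313 CPM, Ltf at 221 CPM and Retnlg at 178.6 CPM. Against the first neutrophil-like cluster these are low for all 5, and Elane stood at 18980 CPM, above the 9064 CPM of the 743 other cells. Prg2, eosinophil major basic protein, went the other way, at 157.1 CPM against 2132 CPM. Called alone, S100a8 was found in 37 cKIT+ cells, the most common pattern after all genes but Retnlg (265 cells) and all 7 (104 cells).

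**Figure D4:**
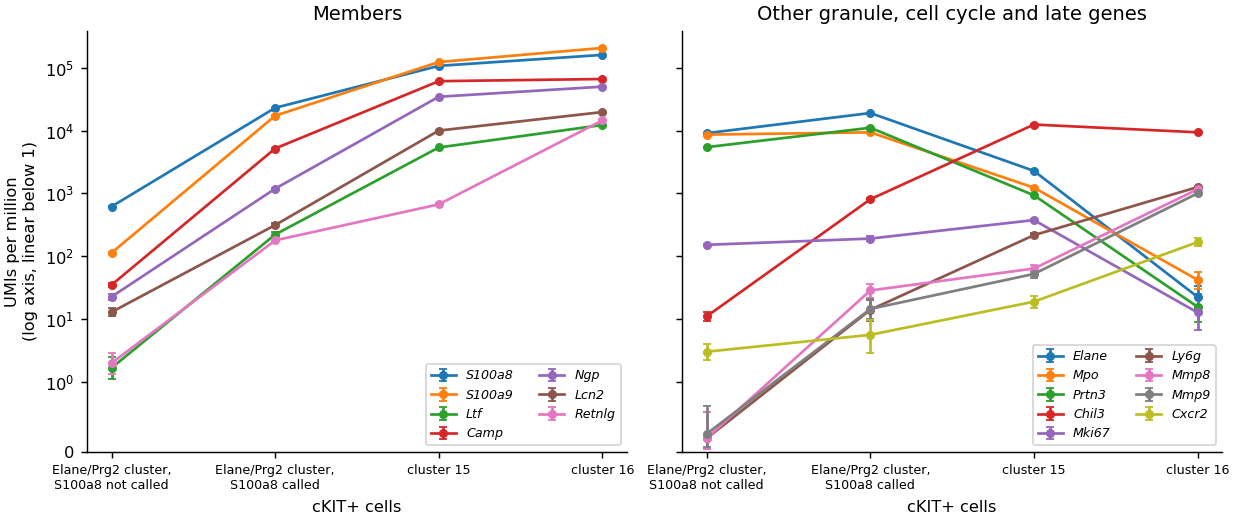
Levels in 4 groups of cKIT+ cells (CPM, log axis that is linear below 1), with the 7 genes on the left and other granule, cell cycle and late genes on the right; bars are 95% counting intervals, lines join the groups and are no measured time course. S100a8 stands above S100a9 in both Elane groups, which were split by the S100a8 call, and below it in both neutrophil-like clusters. Elane goes from 9064 to 22.5 CPM.

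Other granule genes stood with the set. Of a list of 23 further secondary, tertiary granule and membrane genes, 20 had at least 50 CPM in secondary granule cells or in Mcpt8-high cells with no gene called in the cKIT+ library. Of these, 15 were at least 4-fold higher in the secondary granule cells and 0 lower, where 4.69% of 2984 genes were higher and 5.26% lower. The median log2 ratio was 6.87 for the list and -0.62 for all genes. In the cKIT- library 16 of 21 were higher, where 6.23% of 3128 genes were, and 25.7% were lower. Chil3, a chitinase-like secreted protein, stood at 12440.5 CPM against 5.14 CPM in the cKIT+ library, and lysozyme Lyz2 at 11402 CPM against 58.5 CPM. Cybb, the catalytic subunit of the oxidase that makes superoxide, stood at 1226 CPM against 0.818 CPM. The cells had been picked by 4 granule genes, and these lists were chosen with results of these data known.

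Primary granule genes were split. Elane stood at 989 CPM in secondary granule cells and 67.6 CPM in the Mcpt8-high cKIT+ cells, whereas cathepsin G (Ctsg) stood at 681 and 4509 CPM and Mpo at 926 and 3161 CPM. Of 6 at 50 CPM or more, 2 were higher and 2 lower by 4-fold, where 4.69% of all genes were higher and 5.26% lower. The higher were Elane and Prtn3 (533 against 115.2 CPM), and the lower Ctsg and Cst7 (66.4 against 378 CPM). Mpo did not reach 4-fold. In the cKIT- library 2 of 6 were higher and 3 lower, where 6.23% and 25.7% of all genes were. These cKIT- counts rest on very few cells. Of the 32 secondary granule cells, Elane, the higher gene with fewest cells, had its 14 UMIs in 1 and Prtn3 its 13 UMIs in 2. The lower genes Mpo and Ctsg had UMIs in 1 cell each and Cst7 in 2. Of 15 other S100 genes, 5 reached 50 CPM in the cKIT+ library. S100a6 stood at 434 against 1.46 CPM and S100a11 at 963 against 232.7 CPM, both higher, and S100a10 stood at 104.4 against 527 CPM. S100a4 stood at 0.569 CPM, no higher than the limit for a count of 0 in the cKIT+ secondary granule cells. In the 2 neutrophil-like clusters S100a6 stood at 197.8 and 2393 CPM, as Retnlg was higher in the second of them. None of the 3 other resistin family genes reached 50 CPM, with Retn at 0 UMIs in the cKIT+ secondary granule cells.

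Regulators and receptors were read from lists as well. The granulocyte factor Cebpe stood at 701 CPM in cKIT+ secondary granule cells against 5.62 CPM in Mcpt8-high cells, and Cebpd at 339 against 77.9 CPM. Cebpa stood at 48.4 against 346 CPM and Fos at 17.8 against 71.5 CPM. Those were the 2 higher and the 2 lower by 4-fold of 9 regulators at 50 CPM or more, where 4.69% of all genes were higher and 5.26% lower. Runx1, at 109.9 against 405 CPM, did not reach 4-fold. In the cKIT- library 2 of 9 were higher and 2 lower, where 6.23% and 25.7% of all genes were, so that the count of lower genes is near that of all genes. Late neutrophil genes counted 3 of 4 higher in cKIT+ and 4 of 7 in cKIT- cells. Csf3r, the G-CSF receptor, stood at 36.3 and 115.8 CPM in their secondary granule cells. At 36.3 CPM, under 50 CPM, it was not among the 3 higher in cKIT+ cells. Of receptors for the products of these genes, Fpr2, which binds cathelicidin peptides, stood at 65.3 against 0.102 CPM, and Cap1, the other receptor that reached 50 CPM, at 296 against 124.5 CPM, under 4-fold. Tlr4, Ager and the lipocalin receptor Slc22a17 stood at 5.31, 1.71 and 1.52 CPM. Of the cell cycle genes, 0 of 5 were beyond 4-fold in cKIT+ cells and 3 of 6 were lower in cKIT- cells, where 25.7% of all genes were lower and the median log2 ratio of all genes was -1.09. The 3 lower genes, Top2a, Cdk1 and Ccnb1, had UMIs in 5, 4 and 1 of the 32 cKIT- secondary granule cells. The first neutrophil-like cluster held 237 of the 389 cKIT+ and 5 of these 32 cells. The part of this make-up in the cell cycle counts was not tested. The 7 genes held 37.8% of UMIs in cKIT+ and 48.4% in cKIT- secondary granule cells. That share lowers the CPM of every other gene in these cells. Its part in the counts of lower genes was not tested.

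Levels elsewhere were low or rested on single cells. Outside the Elane, neutrophil-like, eosinophil-like, macrophage-like and erythroid-like clusters, S100a8 lay between 3.92 and 237 CPM in the groups of 50 or more cells. The macrophage-like cluster showed 2239 CPM of S100a8 and the erythroid-like cluster 2846 CPM in cKIT+ cells, of which 104.4 and 77.3 CPM were left in cells with no gene called. Of 110 macrophage-like cells, 1 was called for Lcn2 and held 96.0% of the cluster's Lcn2 UMIs. The eosinophil-like cluster, with a median of 1833 UMIs in cKIT+ cells, kept 223 CPM of S100a8 in cells with none called.

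**Figure D5:**
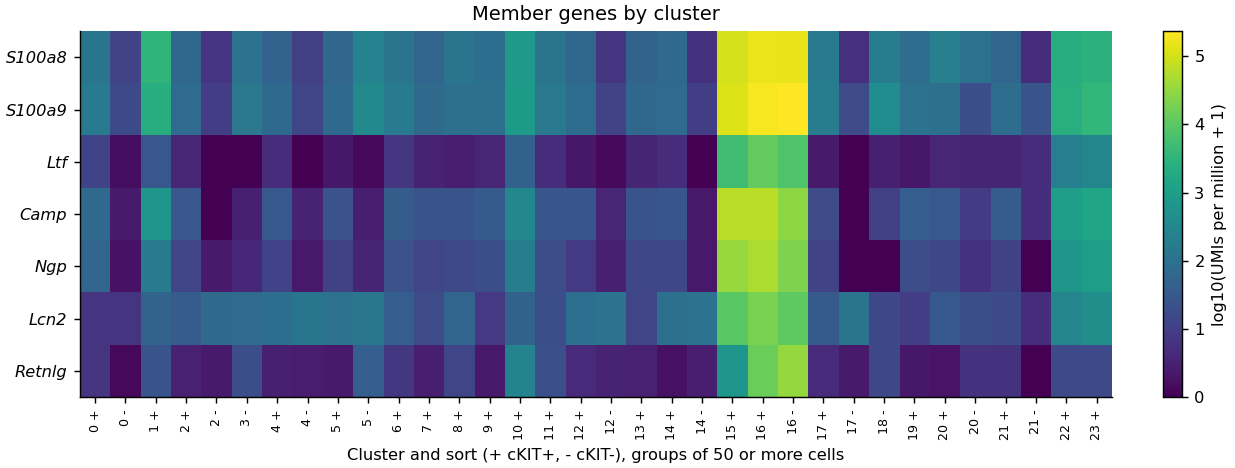
Level of the 7 genes, as log10 of CPM plus 1, in the 34 cluster and sort groups with at least 50 cells. Clusters 15 and 16 are the first and the second neutrophil-like cluster and cluster 1 is the Elane cluster, and Lcn2 is seen also in basophil-like groups such as 4, 5, 12 and 14.

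The pattern over these 34 groups was compared for 6310 genes with the mean log2 level of the set, as a description. Ly6g was most like it (Pearson's r of 0.964), then Lrg1 (0.949), G0s2 (0.931), 1700047M11Rik (0.911) and Wfdc21 (0.911). Within the set, r with the mean was 0.822 for Lcn2, the lowest, 0.911 for Retnlg and 0.965 or more for the other 5. The groups share libraries and depth, and the mean includes each gene of the set itself.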

How the data were processed

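The authors sequenced 1 10x library per sort and deposited its raw counts, that is UMIs of each gene in each cell. Per the submitters' processing notes, Cell Ranger 3.0.2 and mm10 were used. The reagent kit is version 3 in the methods and version 2 in the sample labels, and the gene annotation release is not given in the sources used here. The authors' filter was repeated. It drops genes seen in fewer than 40 cells, then the 1% of cells with most and the 1% with fewest genes, and the 1% with most UMIs. That kept 10141 of 10377 cells. CPM is a gene's UMIs per 1000000 UMIs of the cells summed. GENCODE M21 (GRCm38), which held 31011 of the 31053 gene identifiers, gave coordinates, and RefSeq promoters of GRCm38.p6 gave sequences, those of 1 chromosome being not used here.

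Sums carry exact Poisson, shares exact binomial (Clopper-Pearson) and ratios exact binomial intervals at 95%. The limit for a count of 0 is 3 counts. A list gene at 0 counted at that limit. Clusters came from Seurat 5.3.0 in R 4.3.3 (2000 variable genes less the 7 genes, 15 principal components, resolution 1, 24 clusters), where the authors used an earlier Seurat. A cluster was named after 1 cell class when its 10 leading genes held more markers of it than of any other, 3 or more of its markers were on (20 CPM and 10% of the highest cluster) and fewer than 2 leading genes marked another class, or basophil-like where no leading gene was a marker and at least 5 basophil markers were on. Doublets were scored with Scrublet (Scanpy 1.11.5), which called 264 kept cKIT+ and 3 kept cKIT- cells; they were kept, and left out as alternatives. edgeR 4.0.16 gave TMM factors only.

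The 7 genes, the marker lists, the gene lists and the call rules were chosen with earlier results of these data known. Genes named are the 7 genes, Mcpt8, Kit and Cdh1, genes of the fixed lists, the leading genes of clusters and the 10 genes most like the set.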

Additional observations from a re-analysis of the deposited data

How the results depend on the processing

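No paired analysis was possible because each sort is 1 library. Of 63 recomputed summary values, 45 stayed within 1.5-fold (counts) or the counting interval (levels) and 18 did not. Of 197 values for single genes, 97 stayed, 97 moved and 3 changed sign. The median log2 ratio of the 7 genes was 1.79 and became 2.24 with every cell weighted alike, 2.96 as UMIs per cell, 1.70 with the 10 most abundant genes out of the totals, 1.53 without the highest Scrublet scores and 1.00 without secondary granule cells. Retnlg changed sign to 0.17 with every cell weighted alike and to 0.34 as UMIs per cell, and Lcn2 changed from 1.62 to -1.09 without secondary granule cells. Genes of the set at least 4-fold apart went from 2 to 4 with every cell weighted alike and to 6 as UMIs per cell, and those among all genes from 110 to 1036 with a minimum of 10 UMIs and to 30 with 200 CPM, which test other numbers of genes. The median ambient level of the 7 genes, 261 CPM in cKIT+ and 44.0 CPM in cKIT- cells, became 89.6 and 13.1 CPM with Mcpt8 at 2% or more, 88.3 and 16.01 CPM in the highest 25% of cells by Mcpt8, 24.0 and 0.951 CPM with the highest 1% of cells left out, and 24.1 and 1.95 CPM in cells with no gene called. The cause was not tested, apart from the called cells described with the ambient level. With 5 times the ambient level, cells with any gene called went from 67 to 102 in cKIT-. Secondary granule cells stayed between 313 and 421 in cKIT+ and between 25 and 37 in cKIT- cells, and 2 clusters held at least 90% of them in each of 4 clusterings (3 resolutions, and the 7 genes kept). The lower ambient level, the Scrublet calls, the Mcpt8-high exclusion, the removal of secondary granule cells and the settings for the Retnlg share were chosen after seeing the data. With 1 library per sort, no difference between sorts can be told apart from one between libraries. Depth limits the cKIT- library most, where 32 secondary granule cells hold 241800 UMIs.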
